A study of Mus musculus with 14 samples.

Results

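Satellite cells are the resident stem cells of skeletal muscle, and 10 genes by which they are commonly recognised are described here: Pax7, Itga7, Cdh15, Vcam1, Cd34, Calcr, Sdc3, Sdc4, Chrdl2 and Spry1. They were taken by name from 49585 genes listed in each of 2 deposited tables, and all 10 were found in both. The RNA came from hind limb skeletal muscle of wild-type (WT) mice and of mice labelled Myf6 KO, with or without injury, in 4 groups of 3 libraries. The uninjured libraries come from left and the injured from right legs, if the letters L and R and the shared numbers in the labels are read as naming the leg and the animal, which gives 3 animals per genotype. The knockout allele, strain, age, kind of injury and time after it are not given in the sources used here. WT and KO animals are different animals, so genotype cannot be told apart from litter or batch. A single ChIP-seq library of Flag-tagged Myf6 from primary myotubes, grown from adult satellite cells, was deposited with 1 control library as a list of peaks.

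Satellite cells lie between the muscle fibre and its basal lamina and stay quiescent until damage, when they divide, form new fibres and renew themselves. Pax7 is the transcription factor that defines them. Most of the other markers are proteins of the cell surface that hold the cell in its niche or receive signals there. Myf6, or MRF4, is a basic helix-loop-helix protein of mature fibres, and such factors bind E-boxes, the sequence CANNTG. Several markers are also made by other cells of muscle: Itga7 by fibres, Cd34 by endothelial and fibro-adipogenic cells, and Vcam1 by activated endothelium. In whole muscle, fewer satellite cells and less RNA per cell cannot be told apart.

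Because Myf6 binds E-boxes, the promoters of the markers were examined for them, from 250 bases before to 50 after the transcription start, on both strands. RefSeq sequences of assembly GRCm38.p6 were at hand for 7 of the 10 genes, with 8 starts in all. CANNTG occurred in 3 of these 8 promoters, against 72.3% of all 32851 promoters of that length. The form CAGCTG, which is one of the CANNTG sequences and is preferred by several myogenic factors, occurred in 0 of the 8 and in 16.3% of all. The 3 promoters with an E-box are shown with that of Pax7, which has none, 5′ to 3′ on the strand of the gene, with each CANNTG in capitals. The Cdh15 promoter lies at chr8:122848124-122848423 on the plus strand and holds 4. Spry1 (chr3:37639697-37639996, plus strand) has 2, the upstream start of Calcr (chr6:3764664-3764963, minus strand) has 1, and Pax7 is at chr4:139832919-139833218 on the minus strand.
Cdh15: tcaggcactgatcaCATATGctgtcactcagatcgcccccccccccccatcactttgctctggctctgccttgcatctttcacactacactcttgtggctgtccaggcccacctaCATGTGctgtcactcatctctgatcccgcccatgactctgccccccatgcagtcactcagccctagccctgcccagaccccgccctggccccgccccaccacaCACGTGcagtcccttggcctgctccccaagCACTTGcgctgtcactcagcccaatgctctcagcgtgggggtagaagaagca
Spry1: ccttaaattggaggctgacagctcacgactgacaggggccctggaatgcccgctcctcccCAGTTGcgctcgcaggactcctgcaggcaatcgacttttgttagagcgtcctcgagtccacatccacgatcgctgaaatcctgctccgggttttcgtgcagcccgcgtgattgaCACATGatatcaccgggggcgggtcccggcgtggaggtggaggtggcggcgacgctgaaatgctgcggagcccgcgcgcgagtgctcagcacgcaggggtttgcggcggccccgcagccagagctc
Calcr: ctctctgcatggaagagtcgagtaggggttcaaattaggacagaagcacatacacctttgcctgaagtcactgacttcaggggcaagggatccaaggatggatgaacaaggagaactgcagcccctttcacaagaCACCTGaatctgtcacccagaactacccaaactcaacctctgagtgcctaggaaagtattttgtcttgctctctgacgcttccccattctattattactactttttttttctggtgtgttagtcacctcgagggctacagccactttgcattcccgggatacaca
Pax7: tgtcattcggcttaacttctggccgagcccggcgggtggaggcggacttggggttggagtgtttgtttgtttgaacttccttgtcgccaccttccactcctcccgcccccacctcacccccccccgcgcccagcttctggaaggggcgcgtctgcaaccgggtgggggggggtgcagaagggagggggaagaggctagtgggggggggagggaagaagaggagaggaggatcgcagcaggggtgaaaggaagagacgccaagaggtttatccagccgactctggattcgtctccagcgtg
None of the 8 promoters overlapped a Flag-Myf6 peak. A match of letters is a description of the sequence and not a binding site.

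Depth limits several of the markers. Whole reads could be recovered from the deposited RPM values (reads assigned to a gene, scaled to the total of each library), and the libraries held 1880087 to 49392472 reads. The smallest was uninjured WT replicate 2, where 3 reads, taken as the floor of detection, equal 1.60 RPM, against 0.0607 RPM in the deepest library. In uninjured WT replicate 2 Pax7 rested on 6 reads, and Vcam1 and Sdc3 on 4 each. The targeted gene Myf6 was at 25.0 to 121 RPM in the 6 WT and at 1.86 to 3.46 RPM in the 6 KO libraries. Reads of mitochondrial genes made up 13.8 to 22.3% of the uninjured WT, 3.63 to 15.3% of the uninjured KO, 8.35 to 14.8% of the injured WT and 4.30 to 23.2% of the injured KO libraries, with the highest share in injured KO replicate 2. The part of this share in the differences between groups was not tested. Markers of muscle fibres, such as Acta1 and Ckm, summed to 121110 to 191180 RPM per library, and no marker of the 7 other cell types examined was at 0 in all 12 libraries. All 10 satellite cell markers had reads, with Calcr and Chrdl2 at 0 in 1 library each, uninjured KO replicate 2.

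The comparison of KO with WT asks whether satellite cell markers differ where Myf6 is missing. No marker passed the test in uninjured or injured muscle. The estimates pointed both ways in each state: Cdh15, Sdc3 and Itga7 were higher, and Pax7, Vcam1, Cd34, Sdc4, Chrdl2 and Spry1 lower, in KO. Calcr, the tenth gene, was also lower but fell below the filter of 1 RPM in 3 libraries. With limma on log2(RPM + 1), 0 of 9 markers tested had an adjusted p under 0.05 in uninjured muscle, where 0.281% of 12460 genes did (35), and 0 of 9 in injured muscle, where 0.269% of 12625 did (34). At an unadjusted p under 0.05 there were 0 of 9 in uninjured muscle, against 14.2% of all genes, and 3 of 9 in injured muscle (Vcam1, Sdc3 and Sdc4), against 10.3%. DESeq2 and edgeR on the recovered reads also called 0 of 9 in each state, where DESeq2 called 5.33% and 3.39% and edgeR 0.441% and 0.261% of all genes. At an unadjusted p under 0.05 each had 1 of 9 in uninjured muscle, beside 2244 of 12450 genes with DESeq2 and 2054 of 12460 with edgeR. In injured muscle each had 3 of 9, beside 1681 of 12606 and 1279 of 12625 genes. In the authors' deposited table no marker had a q-value under 0.05, against 0.668% of all genes in the uninjured (331) and 0.454% in the injured table (225). These shares are of all 49585 genes listed, with no filter on low values. They do not compare directly with the shares of the filtered fits above. The smallest q-values in the authors' deposited table were 0.351 for Cdh15 in uninjured and 0.468 for Sdc3 in injured muscle.

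**Figure D1:**
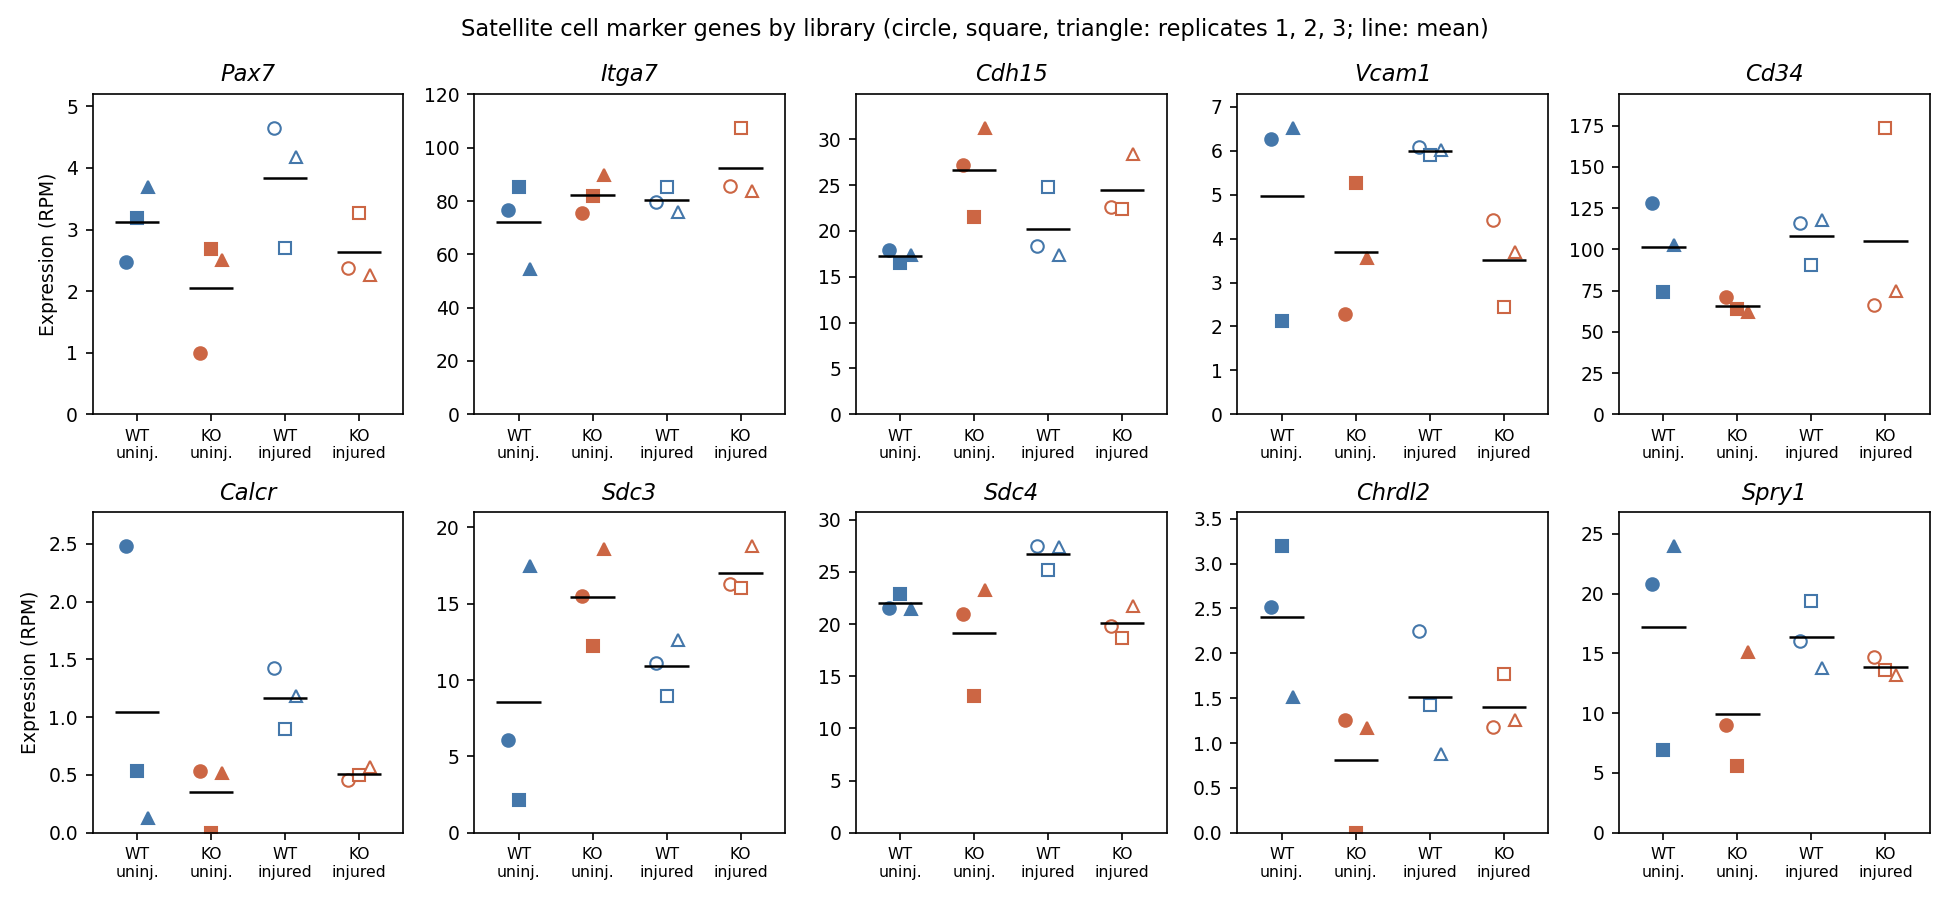
Expression of the 10 satellite cell markers in RPM (y axis, linear from 0, its own scale in each panel) in the 4 groups (x axis). Points are libraries, with the shape giving the replicate, open for injured muscle, and lines are means of 3. Cdh15 in the 3 uninjured KO libraries sits at 21.6 to 31.2 RPM, above the WT libraries at 16.5 to 17.9 RPM, and Cd34 in injured KO replicate 2 stands at 174 RPM.

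Counted over all 10 genes, the 3 KO and 3 WT libraries did not overlap for 3 markers in uninjured muscle, where 21.7% of all genes tested were separated in this way. Cdh15 was the 1 that was higher (6.2% of all genes) and Cd34 and Chrdl2 were lower (15.5%). In injured muscle 4 markers did not overlap, against 16.9% of all genes: Sdc3 was higher (8.29%), and Vcam1, Sdc4 and Calcr were lower (8.63%). For each of these 7 the two-sided exact permutation p was 0.1, the smallest that 3 against 3 libraries allow. Groups of this size that do not overlap always give this p, so it adds no support. On the deposited scale no marker was separated in both states. The median log2 change of the 9 markers tested was -0.29 in uninjured muscle, beside -0.18 for all genes, and -0.17 beside 0.01 in injured muscle. With TMM scaling the median of all genes in uninjured muscle moved to -0.02 and that of the markers to -0.11. The markers that did not overlap were then Cdh15 and Sdc3, both higher, and no longer Cd34 and Chrdl2. In injured muscle TMM left the same 4 markers apart, so that Sdc3 was then separated in both states.

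**Figure D2:**
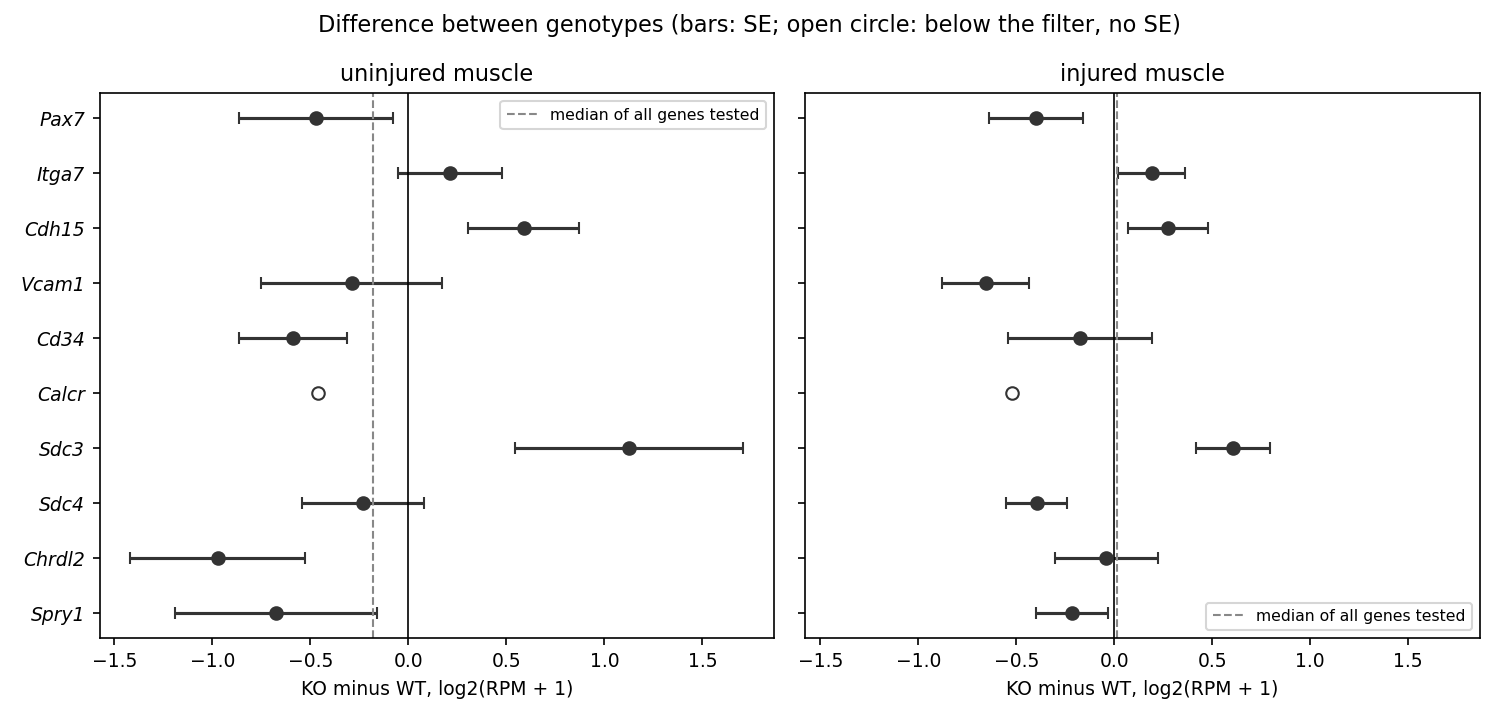
Difference between KO and WT on the log2(RPM + 1) scale (x axis) for each marker (y axis), in uninjured muscle on the left and injured muscle on the right. Filled points are limma estimates with bars of 1 SE, the open point is Calcr, which was below the filter, and the dashed line is the median of all genes tested, -0.18 on the left and 0.01 on the right. Only 3 markers, Itga7, Cdh15 and Sdc3, lie right of 0, and they do so in both panels.

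Pax7 (ENSMUSG00000028736.13) was at 2.48, 3.19 and 3.69 RPM in uninjured WT, against 0.989, 2.68 and 2.50 RPM in uninjured KO muscle. In injured muscle it was at 4.65, 2.70 and 4.17 RPM in WT, against 2.38, 3.26 and 2.27 RPM in KO. The WT and KO libraries overlapped in both states, and the lowest value was that of uninjured KO replicate 1. Group means ran from 3.84 ± 1.02 RPM (SD, n = 3) in injured WT over 3.12 ± 0.609 in uninjured WT and 2.64 ± 0.545 in injured KO to 2.06 ± 0.928 in uninjured KO, where neighbours in this order differed by less than the larger of their SDs. The log2 change was -0.47 (SE 0.39, limma adjusted p 0.631) in uninjured and -0.40 (SE 0.24, limma adjusted p 0.611) in injured muscle. Without uninjured KO replicate 1 the first became -0.19.

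Itga7, Cdh15 and Vcam1 are the adhesion molecules. Itga7 (ENSMUSG00000025348.8), the integrin alpha subunit that binds laminin of the basal lamina, was at 76.5, 85.1 and 54.5 RPM in uninjured WT, against 75.5, 81.8 and 89.8 RPM in uninjured KO muscle. After injury it was at 79.7, 85.3 and 75.7 RPM in WT, against 85.7, 107 and 83.7 RPM in KO, so the groups overlapped in both states. Its log2 changes of 0.21 (SE 0.27) and 0.19 (SE 0.17) had limma adjusted p values of 0.768 and 0.740.

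Cdh15 (ENSMUSG00000031962.6), M-cadherin, joins the satellite cell to its fibre. It was at 17.9, 16.5 and 17.3 RPM in uninjured WT, against 27.2, 21.6 and 31.2 RPM in uninjured KO muscle, so each KO library was above each WT library. The means were 17.2 ± 0.692 and 26.7 ± 4.86 RPM (SD, n = 3), 1.55-fold apart. In injured muscle WT stood at 18.4, 24.8 and 17.4 RPM and KO at 22.6, 22.4 and 28.4 RPM, and injured WT replicate 2 lay within the KO range. The log2 change was 0.59 (SE 0.28, limma adjusted p 0.386) in uninjured and 0.27 (SE 0.20, limma adjusted p 0.682) in injured muscle. Over 13 alternatives the adjusted p ranged from 0.0721 to 0.774 in uninjured muscle, with the change positive in all of them.

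Vcam1 (ENSMUSG00000027962.14), an adhesion protein bound by integrins of other cells, showed its narrowest range in injured WT muscle, at 6.08, 5.92 and 6.01 RPM. The injured KO libraries, at 4.42, 2.43 and 3.71 RPM, were all below them. Uninjured WT libraries were at 6.28, 2.13 and 6.52 RPM and uninjured KO libraries at 2.28, 5.27 and 3.55 RPM. Among these WT replicate 2, the shallowest library, with 4 reads of Vcam1, lay below all KO libraries and the other WT libraries above them. The log2 change was -0.66 (SE 0.22, limma adjusted p 0.403) in injured and -0.29 (SE 0.46, limma adjusted p 0.825) in uninjured muscle. Without WT replicate 2 the uninjured change was -0.70, with an adjusted p of 0.517 (limma).

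Cd34 (ENSMUSG00000016494.9) encodes a sialomucin that satellite cells share with endothelial and fibro-adipogenic cells. In uninjured muscle it was at 128, 73.9 and 103 RPM in WT, against 71.1, 64.0 and 62.0 RPM in KO, with every KO library below every WT library. In injured muscle WT was at 116, 90.8 and 118 RPM and KO at 66.0, 174 and 75.0 RPM. KO replicates 1 and 3 were below all 3 WT libraries and replicate 2 was above them. The log2 change was -0.59 (SE 0.28, limma adjusted p 0.378) in uninjured and -0.17 (SE 0.37, limma adjusted p 0.907) in injured muscle. Without injured KO replicate 2 the latter was -0.60 with an adjusted p of 0.0415 (limma), in a fit that called 19% of all genes (2343 of 12312). Without injured KO replicate 1 it was 0.09.

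The same injured KO replicate 2 had the highest endothelial marker sum of all libraries, 1032 RPM for 10 genes including Pecam1 and Cdh5, against 293 to 536 RPM in the other 11. Its Schwann cell marker sum was 1248 RPM, against 92.7 to 697 RPM elsewhere. It also had the highest Itga7 level, 107 RPM. The part of these cells in the level of Cd34 was not tested.

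Calcr (ENSMUSG00000023964.15), the calcitonin receptor, which keeps satellite cells quiescent, was at low levels in all groups. Uninjured WT libraries were at 2.48, 0.532 and 0.132 RPM and uninjured KO libraries at 0.533, 0 and 0.514 RPM. The WT value of replicate 2 was 1 read, and the 0 of KO replicate 2 allows up to 0.236 RPM, taking 3 reads as the floor. Injured WT libraries, at 1.43, 0.898 and 1.19 RPM, were all above the injured KO libraries, at 0.455, 0.498 and 0.567 RPM. These rested on 19 to 31 reads in WT and 9 to 28 reads in KO. The means of 1.17 ± 0.264 and 0.507 ± 0.0564 RPM (SD, n = 3) are 2.31-fold apart. Without the filter on low values the log2 change was -0.52 with an adjusted p of 0.424 (limma) in injured and -0.46 with 0.767 in uninjured muscle.

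Sdc3 and Sdc4 are syndecans, cell surface proteoglycans whose heparan sulfate chains bind growth factors such as Fgf2 and Hgf. Sdc3 (ENSMUSG00000025743.14) was at 6.08, 2.13 and 17.5 RPM in uninjured WT, against 15.5, 12.2 and 18.6 RPM in uninjured KO muscle. Injured WT libraries were at 11.1, 8.98 and 12.6 RPM and injured KO libraries at 16.3, 16.0 and 18.7 RPM. All injured KO libraries were above all injured WT libraries, while in uninjured muscle WT replicate 3 lay within the KO range. The log2 change was 0.61 (SE 0.19, limma adjusted p 0.356) in injured and 1.13 (SE 0.58, limma adjusted p 0.417) in uninjured muscle. The uninjured change was 0.50 without WT replicate 2, where Sdc3 had 4 reads, and 1.78 without WT replicate 3. Without injured KO replicate 2 the injured change was 0.65 with an adjusted p of 0.0494 (limma), in the fit that called 19% of all genes. Over 13 alternatives the adjusted p ranged from 0.0494 to 0.969 in injured muscle.

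Sdc4 (ENSMUSG00000017009.3) went the other way from Sdc3 in its estimates. It was at 21.6, 22.9 and 21.5 RPM in uninjured WT, against 21.0, 13.1 and 23.3 RPM in uninjured KO muscle, and the groups overlapped. Injured WT libraries were at 27.5, 25.2 and 27.4 RPM, above the injured KO libraries at 19.8, 18.6 and 21.8 RPM. The means in injured muscle were 26.7 ± 1.27 and 20.1 ± 1.59 RPM (SD, n = 3), and the log2 change was -0.40 (SE 0.16, limma adjusted p 0.456). In uninjured muscle the log2 change was -0.23 (SE 0.31, limma adjusted p 0.788), and 0.01 without KO replicate 2.

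Chrdl2 and Spry1 act on signalling outside and inside the cell. Chrdl2 (ENSMUSG00000030732.13), a secreted protein related to the BMP antagonist chordin, was at 2.51, 3.19 and 1.52 RPM in uninjured WT, against 1.26, 0 and 1.17 RPM in uninjured KO muscle. The KO libraries were all below the WT libraries, with 6 reads behind WT replicate 2 and none in KO replicate 2. In injured muscle WT was at 2.25, 1.42 and 0.880 RPM and KO at 1.18, 1.77 and 1.26 RPM, and the groups overlapped. The log2 changes were -0.97 (SE 0.45, limma adjusted p 0.367) and -0.04 (SE 0.26, limma adjusted p 0.976). Without uninjured KO replicate 2 the first was -0.59.

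Spry1 (ENSMUSG00000037211.12), an inhibitor of receptor tyrosine kinase signalling that satellite cells use to return to quiescence, was at 20.8, 6.91 and 23.9 RPM in uninjured WT, against 8.98, 5.59 and 15.1 RPM in uninjured KO muscle. Injured WT libraries were at 16.1, 19.4 and 13.8 RPM and injured KO libraries at 14.7, 13.6 and 13.2 RPM. The groups overlapped in both states, with the lowest WT value again in the shallowest library. Its log2 changes were -0.68 (SE 0.51, limma adjusted p 0.597) and -0.22 (SE 0.18, limma adjusted p 0.724). The uninjured change was -1.20 without WT replicate 2 and -0.37 without WT replicate 3.

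The injured leg was compared with the uninjured leg within each genotype, and the interaction asks whether this difference changes with genotype. As the labels are read here, both legs come from the same animals. Injury cannot then be told apart from leg side, and no animal without an injured leg was sampled. The main fit does not pair the legs, and a block on the animal is an alternative. No satellite cell marker passed in WT, in KO or in the interaction: limma called 0 of 10 each time, and so did DESeq2 and edgeR, with 0 of 10 at an unadjusted p under 0.05 by each of the 3 tools. Calcr, among these 10, passed the filter of this fit of 12 libraries through WT libraries alone. Over all 13337 genes 0% were called, and 1.29%, 3.51% and 1.56% had an unadjusted limma p under 0.05. In WT muscle 9 of the 10 estimates were higher after injury with limma, and 7 of 10 with DESeq2 and edgeR. Without uninjured WT replicate 2, the shallowest library, 6 of 10 were higher, the markers' median moved from 0.21 to 0.08 and that of all genes from 0.09 to -0.01. In KO muscle 8 of 10 were higher, but 5 of 10 with TMM scaling, which moved the median of all genes from 0.29 to 0.05, and 5 of 10 with DESeq2 and edgeR. The markers' median was 0.17 in KO and -0.02 with TMM scaling.

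Within single animals, the injured leg was higher than the uninjured leg in 3 of 3 WT animals for Itga7, Cdh15 and Sdc4, and 17.5% of all 13337 genes were higher in this way. For Itga7 the log2 changes were 0.059, 0.0030 and 0.47, and for Cdh15 0.039, 0.56 and 0.0038, so 2 of the 3 animals were close to 0 for each. In KO animals Sdc3 alone was higher in 3 of 3, beside 19.8% of all genes, and 0 markers were lower in 3 of 3, beside 3.85%. In WT animals Sdc4 had the most even change of these 3 markers, 0.27 ± 0.115 on the log2(RPM + 1) scale (SD, n = 3), from 0.14 to 0.34. In KO animals Sdc4 was higher in 1 of 3, and the interaction was -0.17 (SE 0.34, limma adjusted p 0.9999), so a difference between genotypes was not detected. Chrdl2 was lower in 3 of 3 WT animals, as were 8.5% of all genes, by a mean log2 change of -0.44 ± 0.340 (SD, n = 3), and higher in 2 of 3 KO animals, with a mean of 0.49 ± 0.849. The Chrdl2 changes of the KO animals were -0.051, 1.47 and 0.056, and the 1.47 starts from 0 reads in uninjured KO replicate 2. The lowest WT change, -0.79, starts from 6 reads in uninjured WT replicate 2. The Chrdl2 interaction estimate, 0.93 (SE 0.51), was the furthest from 0 of the 10. It had an unadjusted limma p of 0.0932 and a limma adjusted p of 0.9999. Pax7 was higher after injury in 2 of 3 animals of each genotype, by means of 0.22 ± 0.446 in WT and 0.29 ± 0.438 in KO.

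**Figure D3:**
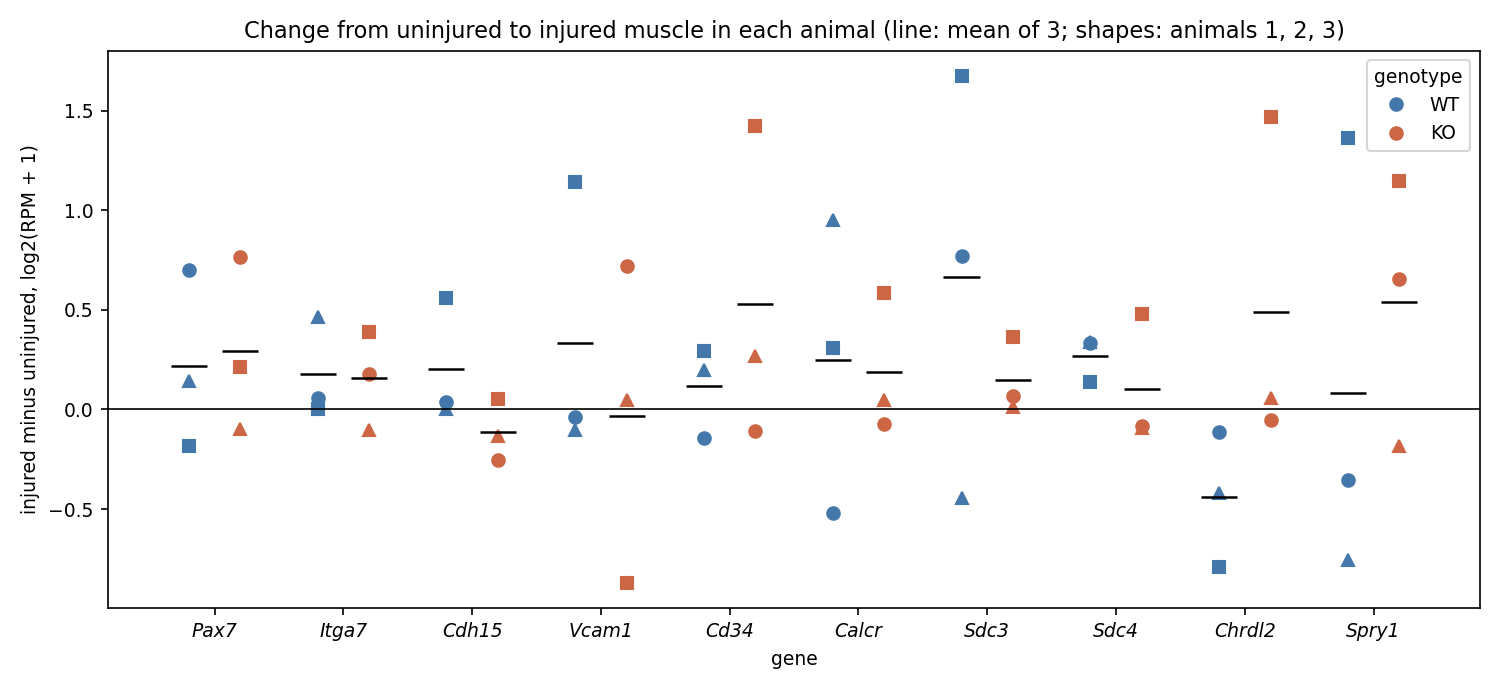
Change of each marker from the uninjured to the injured leg of 1 animal (y axis, log2(RPM + 1)), by gene (x axis). Points are 3 WT animals in blue and 3 KO animals in orange, with the shape giving the animal, and lines are means. The WT animal shown as a square, whose uninjured library is the shallowest, has the highest WT change for Cdh15, Vcam1, Cd34, Sdc3 and Spry1.

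Genes linked to the markers gave no call either, by limma in KO against WT. Among 20 other genes of satellite cells, such as Pax3, Myf5 and Met, 0 of 14 tested passed in uninjured and 0 of 15 in injured muscle. Their unadjusted p was under 0.05 for 1 and 3 genes, beside 14.2% and 10.3% of all genes tested. Their median log2 changes of 0.03 and 0.15 stand beside -0.18 and 0.01 for all genes. The smallest p in uninjured muscle was that of Heyl, a target of Notch signalling, at 5.34 ± 1.09 RPM in WT and 10.2 ± 0.641 RPM in KO (SD, n = 3; log2 change 0.83, limma adjusted p 0.292). In injured muscle it was that of Megf10, a surface receptor of satellite cells, at 2.30 ± 0.681 and 0.829 ± 0.124 RPM (SD, n = 3; log2 change -0.83, limma adjusted p 0.298).

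Partners and relatives of the markers, 27 genes such as laminins, catenins and other syndecans and sproutys, had 26 in the tables. Of these 0 of 24 tested passed in uninjured and 0 of 23 in injured muscle, and the unadjusted p of 3 was under 0.05 in each. Of all genes tested, 14.2% in uninjured and 10.3% in injured muscle reached this p, shares that also stand beside the next lists. Ramp1, a partner protein of calcitonin family receptors, was at 71.9 ± 10.4 RPM in WT and 39.3 ± 9.68 RPM in KO in uninjured muscle (SD, n = 3), with a limma adjusted p of 0.217. Sdc1 was at 3.04 ± 0.301 and 5.78 ± 1.83 RPM in injured muscle (SD, n = 3), with a limma adjusted p of 0.417. Of 10 genes of myogenic commitment and early differentiation 0 of 8 tested passed in either state, with 2 and 1 at an unadjusted p under 0.05 and 7 and 5 estimates higher in KO. Des, the intermediate filament desmin, was at 2616 ± 192 and 5206 ± 83.1 RPM in uninjured muscle (SD, n = 3; log2 change 0.99, limma adjusted p 0.137). Myh3, embryonic myosin, was at 1.19 ± 0.455 and 3.77 ± 1.54 RPM in injured muscle (SD, n = 3; log2 change 1.09, limma adjusted p 0.316). Of 12 proliferation genes 0 of 4 tested passed in uninjured and 0 of 5 in injured muscle, and 2 and 0 had an unadjusted p under 0.05. Tyms was at 3.03 ± 1.09 and 0.652 ± 0.373 RPM in uninjured muscle (SD, n = 3; limma adjusted p 0.206), and Pcna at 12.3 ± 1.29 and 13.4 ± 1.72 RPM in injured muscle (limma adjusted p 0.860).

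Summed levels of markers of other cell types are given beside these genes, without a test of the sums. Markers of macrophages and other leukocytes, 10 genes, summed to 106 to 209 RPM in uninjured WT and 63.7 to 103 RPM in uninjured KO. After injury they summed to 136 to 187 RPM in WT and 110 to 123 RPM in KO. The groups did not overlap in either state. In uninjured muscle the gap lay between 106 RPM in WT replicate 2, the shallowest library, and 103 RPM in KO replicate 3. TMM scaling was not applied to the sums of any list. Ptprc and Fcgr1 of the leukocyte list were at 0 in at least 1 library. Fibro-adipogenic and fibroblast markers summed to 1512 to 3138 RPM in uninjured WT and 1207 to 2215 RPM in uninjured KO, with overlap, and to 2475 to 2614 and 2110 to 2424 RPM after injury, without overlap. Muscle fibre markers summed to 130230 to 135790 RPM in uninjured WT and to 170940 to 191180 RPM in uninjured KO, without overlap, and overlapped after injury. Of single genes, 21.7% in uninjured and 16.9% in injured muscle did not overlap between genotypes. No gene of the 3 lists passed the limma test in either state. All 10 of each were tested, except for 9 of 10 leukocyte genes in uninjured muscle. At an unadjusted p under 0.05 there were 4, 3 and 3 in uninjured muscle, beside 14.2% of all genes tested. There were 3, 1 and 2 in injured muscle, beside 10.3%. On the higher side in KO were 0 of 9 leukocyte, 2 of 10 fibro-adipogenic and 9 of 10 fibre genes in uninjured muscle. The list medians were -0.998, -0.66 and 0.55 (log2), beside -0.18 for all genes. After injury the counts were 0, 2 and 7 of 10, with medians of -0.43, -0.17 and 0.32 beside 0.01. The single genes with the smallest p in uninjured muscle were Lyz2, Ly6a and Myh7, with log2 changes of -1.01, -0.80 and 1.88. In injured muscle Fcgr1 had -0.66, Pdgfra -0.65 and Myh7 2.76.

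The other 4 lists, of endothelial cells, smooth muscle cells and pericytes, adipocytes and Schwann cells, also had 0 genes called by limma in either state. In uninjured muscle they had 0, 1, 5 and 1 genes at an unadjusted p under 0.05, where 14.2% of all genes tested did. In injured muscle they had 1, 4, 3 and 0, where 10.3% did. Their estimates went both ways. In uninjured muscle 6 of 10 endothelial, 5 of 10 smooth muscle, 7 of 8 adipocyte and 1 of 8 Schwann cell genes were on the higher side in KO, with list medians of 0.05, 0.00072, 0.94 and -0.51 (log2), beside -0.18 for all genes. In injured muscle the counts were 8 of 10, 8 of 10, 7 of 8 and 7 of 8, with medians of 0.42, 0.32, 1.46 and 0.70 beside 0.01. Single genes with the smallest p of the first 3 lists were Tie1, Myh11 and Lep in uninjured muscle, with log2 changes of 0.37, 0.91 and 2.21. In injured muscle those of all 4 lists were Pecam1, Acta2, Plin1 and Ncmap, with 0.59, 1.06, 2.27 and 1.42.

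Single satellite cell markers followed the mean log2(RPM + 1) of each list, not its sum, to different degrees across the 12 libraries. These come from 6 animals and share their depth. The 4 groups were pooled with their means left in, so differences between groups enter each r and rho. Spry1 had a Pearson's r of 0.94 and a Spearman's rho of 0.85 with the mean of the fibro-adipogenic and fibroblast markers, and r was 0.84 without the 2 libraries furthest from the median of that mean. It also had r = 0.83 and rho = 0.81 with the leukocyte markers, and r = 0.68 without the 2 furthest. Cdh15 had r = 0.77 and rho = 0.68 with the mean of the muscle fibre markers, and r = 0.56 without the 2 furthest. Cd34 had r = 0.68 and rho = 0.64 with endothelial markers, and r = -0.71 and rho = -0.78 with fibre markers. With fibro-adipogenic markers its r was 0.66 and rho 0.77, and with leukocyte markers r was 0.66 and rho 0.76. Without the 2 furthest these 4 r of Cd34 were 0.72, -0.65, 0.65 and 0.55. Calcr, at 1 RPM or more in WT libraries alone, had r = 0.72 and rho = 0.62 with leukocyte markers, and r = 0.40 without the 2 furthest. For the same list these were 0.60, 0.79 and 0.87 in Vcam1, 0.69, 0.50 and 0.60 in Sdc4, and 0.53, 0.44 and 0.80 in Pax7. For Pax7 with fibre markers they were -0.60, -0.63 and -0.65, and with adipocyte markers -0.44, -0.61 and -0.67. For Cd34 with Schwann cell markers they were 0.65, 0.65 and 0.65. For Sdc4 with smooth muscle markers they were -0.67, -0.67 and -0.71. These were picked from 70 pairs of a marker and a list after their values were seen, and are given without a test. Pairs of like size that were left out include Sdc3 with adipocyte markers and Vcam1 with fibro-adipogenic markers. The part of these cells in the levels of the markers named was not tested.

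**Figure D4:**
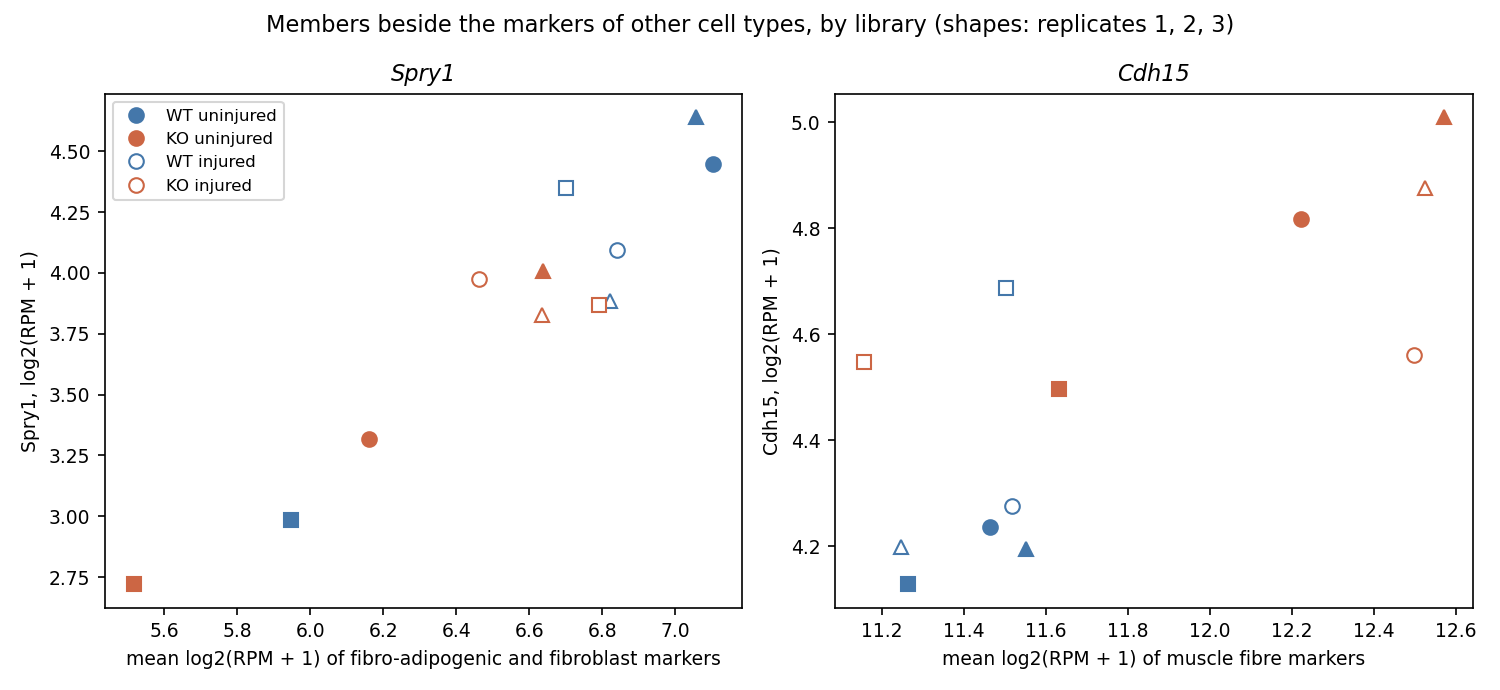
Level of Spry1 (left) and Cdh15 (right) in log2(RPM + 1) on the y axis, against the mean log2(RPM + 1) of fibro-adipogenic and fibroblast markers and of muscle fibre markers on the x axis. Points are the 12 libraries, blue for WT and orange for KO, open for injured muscle. Spry1 lies along a line with r = 0.94, and its lowest points are uninjured KO replicate 2 and uninjured WT replicate 2.

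Pairs of markers were compared over the same 12 libraries, without a test and again with the group means left in. Among their 45 pairs r had a median of 0.17 and was above 0 in 27. It was lowest for Pax7 and Cdh15 (r = -0.64, rho = -0.64) and highest for Calcr and Sdc4 (r = 0.62, rho = 0.71). By the rule of the 3 highest r among 13336 other genes, no marker was among the genes most like another. Pax7 was most like Prepl (r = 0.86, rho = 0.83), Tbc1d19 and Ing3. Itga7 was most like Arfgap1 (r = 0.88, rho = 0.71), Ric3 and Zmiz2, and Cdh15 like Fam160b2 (r = 0.92, rho = 0.91), 4933415F23Rik and Zfp651. Vcam1 was nearest to Neu2 (r = 0.91, rho = 0.95), Uty and Pxylp1, and Cd34 to Sept8 (r = 0.97, rho = 0.90), Ddx11 and Atp2b4. Calcr was nearest to Pvt1 (r = 0.93, rho = 0.89), Clec9a and Clec4b1. It reached 1 RPM only in uninjured WT replicate 1 (2.48 RPM) and injured WT replicates 1 and 3 (1.43 and 1.19 RPM). Calcr thus entered the fit of 12 libraries through WT alone. In KO it was at most 0.533 RPM in uninjured and 0.567 RPM in injured muscle. The same low values stand behind its r with Sdc4 and with the leukocyte markers. Sdc3 was nearest to Kbtbd11 (r = 0.95, rho = 0.82), Tmem127 and Gnai2, and Sdc4 to Atxn7l1 (r = 0.94, rho = 0.88), Farsa and Cebpd. Chrdl2 was nearest to Zfp94 (r = 0.94, rho = 0.81), Ncf1 and Arap2, and Spry1 to Slc30a5 (r = 0.98, rho = 0.88), Yipf6 and Atp6v0e.

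Flag-Myf6 peaks were set beside the markers to see which of them have a peak nearby in myotubes. With 1 library there was no replicate check, and fold enrichment and q-values are the authors' own. Of the 10 markers, 7 had a peak within 10 kb of the gene, compared with 20.1% of all 35565 genes with a position and 35.5% of the 12755 that were also tested in the fit of 12 libraries. All 7 held a peak inside the gene, compared with 11.6% and 24.4%. The median gene length was 23669 bp for the markers, 7159 bp for all genes and 22696 bp for those tested. Within 50 kb 9 markers had a peak, compared with 40% and 60%. A peak of at least 10-fold within 10 kb was found at 3 markers, compared with 6.91% and 12.8%.

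Those 3 were Calcr, Cdh15 and Pax7. Calcr had the highest fold enrichment of any marker within 10 kb, 13.5, at chr6:3758145-3758309, inside the gene and 5391 bp after the nearest start. Cdh15 had 2 peaks near its start, of 5.48-fold at chr8:122849490-122849616 and 11.9-fold at chr8:122850757-122850967, with summits 1191 and 2492 bp after it. They lie beyond the printed Cdh15 promoter with its 4 E-boxes. Pax7, a gene of 96472 bp, held 2 peaks, of 11.5-fold at chr4:139783044-139783364 and 7.57-fold at chr4:139747325-139747567, with summits 49726 and 85508 bp after the start. The median fold enrichment of all 12898 peaks was 7.68.

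Sdc4 had 3 peaks within 10 kb. The 8.14-fold peak at chr2:164441229-164441512 lay in the gene, 1800 bp after its start, and the others, of 3.87-fold and 5.63-fold, lay beyond its end, the latter nearer to Rbpjl. Itga7 held peaks of 3.45-fold and 6.65-fold inside the gene and had 1 of 5.73-fold at 1758 bp outside it. A 15.3-fold peak at 10966 bp from Itga7 lies in Bloc1s1. Chrdl2 held 1 peak of 9.67-fold and Sdc3 1 of 7.69-fold, 27425 bp after its start. Cd34 and Spry1 had their nearest peaks at 12907 and 27807 bp from the gene, of 5.22-fold and 11.1-fold, and Vcam1 had none within 50 kb. Whether a peak lies in an exon or an intron was not analysed here.

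**Figure D5:**
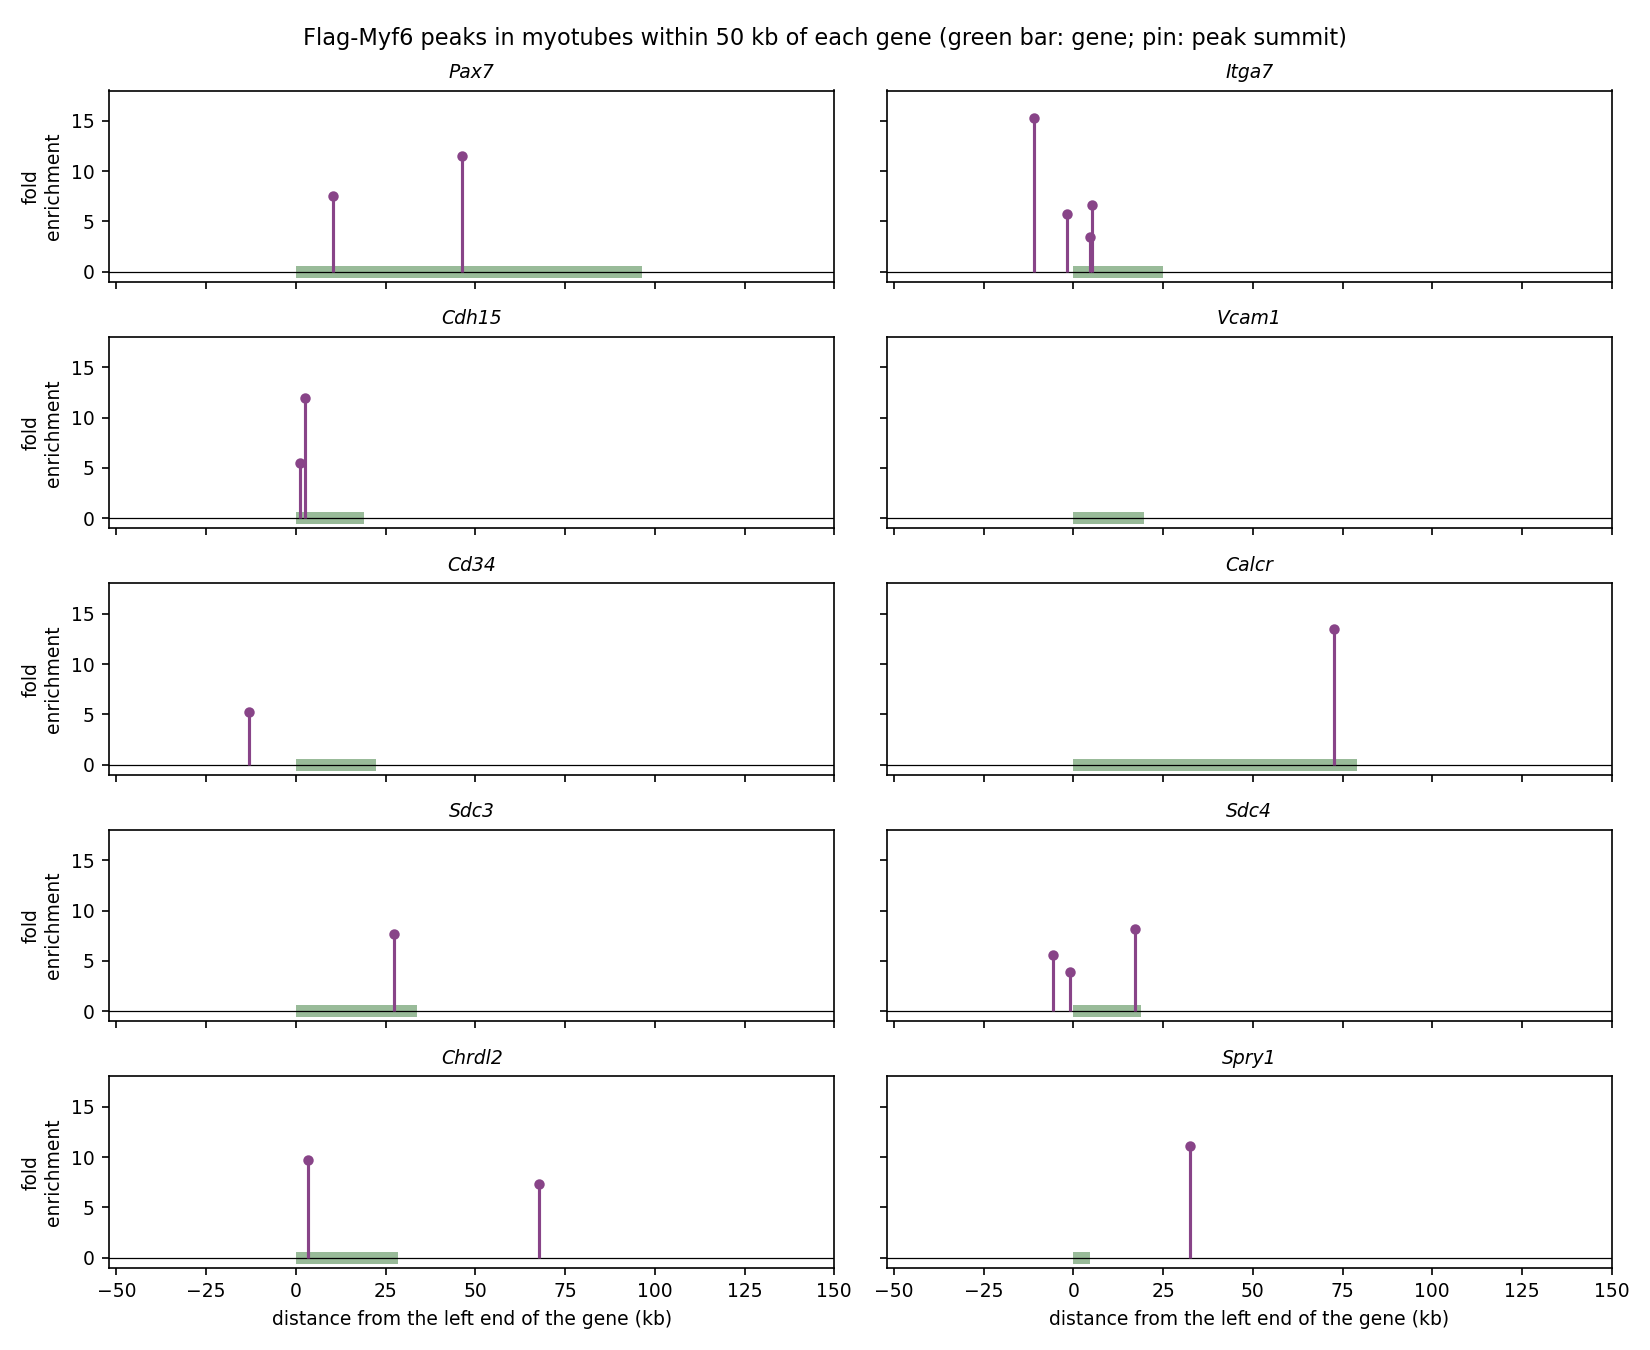
Flag-Myf6 peaks within 50 kb of each marker gene, drawn as pins at the peak summit with the fold enrichment as height (y axis), against the distance in kb from the end of the gene with the lower coordinate (x axis). Green bars are the genes to scale. Pins stand inside 7 of the 10 genes, and the panel of Vcam1 has none.

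Set beside expression, the markers with a peak in the gene differed in the direction of their KO estimates. Cdh15, Sdc3 and Itga7 were higher and Pax7, Calcr, Sdc4 and Chrdl2 lower in KO in both states, none of them past the test. The 3 markers without a peak within 10 kb, Vcam1, Cd34 and Spry1, were all lower in KO in both states, also none past the test. Lower was the more common direction in uninjured muscle, where changes over all genes tested centred on -0.18 (log2), against 0.01 in injured muscle. The injured Cd34 change ran from -0.60 to 0.09 with a library left out. Of the markers with a peak, Sdc4 in uninjured and Chrdl2 in injured muscle also changed sign in this way. RNA was from whole muscle and the peaks from cultured myotubes.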

How the data were processed

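RNA libraries were made from Trizol extracts with the TruSeq RNA v2 kit, per the labels' protocols. For each injury state the authors deposited a table that holds RPM for every gene and library, beside their own log2 fold change (WT over KO), p-value and q-value. The submitters' processing notes list HISAT2 2.1.0, SAMtools, featureCounts, DESeq2, Bowtie 1.1.0 and the builds mm10 and GRCm38.p5, without roles. Strand use in counting is not given in the sources used here. The authors' peak list gives the pileup signal, the fold enrichment as a ratio over local background and −log10 p and q-values, called with MACS2 2.1.0.20140616 at a q cutoff of 0.05, per the file headers. The list names JH584304.1, a GRCm38 sequence, so gene positions of RefSeq GRCm38.p6 were used with it.

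From these, whole reads were recovered (100% of testable values whole within 0.1 read). The lowest mean chi-square per gene between any 2 libraries was 12.1, so none was a copy of another. The test, fitted to all genes, was limma 3.58.1 under R 4.3.3 (lmFit, then eBayes with trend) applied to log2(RPM + 1) of genes reaching 1 RPM in 3 or more fitted libraries, and Benjamini-Hochberg adjustment, two-sided, with a threshold of 0.05. KO against WT used its own 6 libraries, injury and interaction all 12. The log2 scale understates changes of low genes. Exact permutation tests over libraries were two-sided. Alternatives were TMM scaling, DESeq2 1.42.0 and edgeR 4.0.16 on recovered reads, no filter, a replicate block, a pseudocount of 0.1, leaving out each library, the authors' q-values, and other peak windows. Scripts were tested on simulated data. Floors cover counting error only. Apart from the numbers read as animals, no label says how the samples of a group were obtained, so p-values measure the spread between these samples, which may be technical. The injury libraries pair by animal, as read from the labels; same-animal deviations correlated by 0.28, -0.23 and 0.02 in WT and by 0.02, 0.50 and 0.63 in KO. The 10 genes and all lists were chosen with earlier results of these data known. The genes named from a list are those with an adjusted p under 0.05 or, where none passed, the 1 with the smallest p in each KO comparison, and the genes of like pattern are the 3 with the highest r. The gene named by this rule from the Schwann cell list in uninjured muscle is not reported here.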

Additional observations from a re-analysis of the deposited data

How the results depend on the processing

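No marker was called in any comparison under any alternative except without injured KO replicate 2, so the number of markers called ranged from 0 to 2 over the libraries left out in injured and was 0 in uninjured muscle. The number of all genes called moved more. In uninjured muscle 35 became 110 with TMM scaling, 663 with DESeq2, 55 with edgeR, 20 with a pseudocount of 0.1, 1 without a filter and 331 by the authors' deposited q-values, and 3 (without KO replicate 1) to 84 (without KO replicate 3) with a library left out. In injured muscle 34 became 427 with DESeq2, 19 without a filter and 225 by the authors' deposited q-values, and 0 to 2343 with a library left out: 2343 without KO replicate 2 and 0 without any other. For injury in KO the range was 0 to 1, the 1 without uninjured KO replicate 3. The cause was not tested. At an unadjusted p under 0.05, uninjured muscle had 0 of 9 markers in the main fit and with a pseudocount of 0.1. It had 2 of 9 with TMM scaling and 4 of 9 with the replicate block, beside 2228 and 2984 of 12460 genes. The authors' deposited p-values gave 2 of 10, Cdh15 and Sdc3, beside 2552 of 49585 genes.

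With the replicate number as a block, KO against WT called 752 genes in uninjured and 0 in injured muscle and 0 markers in both. The numbers join different animals, and same-numbered libraries correlated by 0.04, 0.26 and 0.37 in uninjured and by -0.45, -0.60 and -0.30 in injured muscle; not every uninjured library correlated best with its own number, WT replicate 1 being closer to KO replicate 2 (0.09). Blocking on the animal instead, 0 genes were called for injury and the interaction, and no call changed.

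Directions of KO against WT were kept by all 65 values of other alternatives in each state. With a library left out they reversed for Sdc4 in uninjured (-0.39 to 0.0081) and for Cd34 (-0.60 to 0.087) and Chrdl2 (-0.23 to 0.16) in injured muscle. For injury in KO, Itga7, Sdc3 and Sdc4 reversed to -0.16, -0.14 and -0.19 with DESeq2, to -0.15, -0.13 and -0.18 with edgeR and to -0.14, -0.13 and -0.18 with TMM scaling. In WT, Calcr and Spry1 reversed to -0.021 and -0.17 with DESeq2 and to -0.038 and -0.14 with edgeR. With a library left out the injury change ranged in WT from -0.0098 to 0.31 for Itga7, -0.080 to 0.55 for Vcam1, -0.093 to 0.30 for Cd34, -0.096 to 0.34 for Calcr and -0.44 to 0.39 for Spry1, and in KO from -0.25 to 0.0057 for Cdh15, -0.27 to 0.20 for Vcam1, -0.017 to 0.29 for Calcr and -0.14 to 0.26 for Sdc4. The number of markers with a peak stayed at 7 with the gene alone, was 9 within 50 kb and fell to 3 at 10-fold or more. Depth limits Calcr, Chrdl2, Vcam1, Sdc3 and Pax7 in uninjured WT replicate 2, where 6 reads or fewer stand behind each.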
